A study of Mus musculus with 2 samples.

Results

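Regulatory T cells were chosen by a rule on transcript counts (unique molecular identifiers, UMIs, each 1 captured RNA molecule) from 2 droplet single-cell RNA libraries of mouse liver tumours. A barcode, the tag of 1 droplet, was a member with at least 1 UMI of Cd3d, Cd3e or Cd3g, none of Cd8a or Cd8b1, and either Foxp3 or both Ikzf2 and Ctla4. It also had at least 200 genes, at most 20% mitochondrial UMIs, and Krt8 and Krt18 together at no more than 1 UMI or below 0.1% of UMIs. This gave 135 members of 17473 barcodes, 51 of 9920 in shCtrl and 84 of 7553 in shSrsf10. Foxp3 put 34 of them in (the Foxp3 route, 17 in each library), and the other 101 entered on Ikzf2 and Ctla4 without a Foxp3 UMI (the pair route, 34 in shCtrl and 67 in shSrsf10).

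The series addressed what targeting Srsf10, a splicing factor of the SR family, does to the immune cells of hepatocellular tumours. The shCtrl library carries the genotype label WT and the shSrsf10 library the label shSrsf10, and both hold dissociated tumour tissue. Strain, age, the way the hairpin was delivered, the cells that carry it and the number of animals behind a library are not given in the sources used here. With 1 library per group, no difference between the groups could be checked against replicates: the intervals given are 95% and cover counting error only, and no p-value was computed.

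Regulatory T cells are CD4 T cells that restrain other immune cells. The transcription factor Foxp3 fixes their identity, Ikzf2 (Helios) is a partner found in many of them, and they draw on interleukin 2 through the receptor chain Il2ra and hold back antigen-presenting cells through Ctla4. In tumours they often carry costimulatory receptors such as Tnfrsf4 (OX40) and Tnfrsf9 (4-1BB), and they can release the suppressive cytokine Il10 and the growth factor Areg. In GENCODE vM21 on GRCm38, the genes of the rule lie at chrX:7573644-7595245 (Foxp3), chr1:69531214-69687245 (Ikzf2) and chr1:60887000-60915832 (Ctla4).

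Foxp3 was sparse even among the cells it selected. In shCtrl, 11 of the 17 Foxp3 route members had exactly 1 Foxp3 UMI and the highest had 5. In shSrsf10, 5 of 17 had exactly 1, the median was 2 and the highest had 14. Of these members, 14 in shCtrl and 15 in shSrsf10 would also have entered on Ikzf2 and Ctla4. The converse was rarer: of all members with Ikzf2 and Ctla4, Foxp3 was seen in 29.2% (17 to 44.1) in shCtrl and 18.3% (10.6 to 28.4) in shSrsf10. Cd4, which the rule did not ask for, was seen in 23 of 51 and 50 of 84 members. These values chose the cells and are a description.

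The rule's edge was broad. In the pair route, 7 of 34 shCtrl and 13 of 67 shSrsf10 members had exactly 1 UMI of each gene. Just outside stood 17 shCtrl and 39 shSrsf10 CD3 barcodes without CD8 that held Ikzf2 but not Ctla4, and 47 and 330 that held Ctla4 but not Ikzf2. Foxp3 was also seen in 3 shSrsf10 CD8 T cells, in no CD8 T cell of shCtrl, and in 5 of 7399 shCtrl and 3 of 4450 shSrsf10 barcodes past the keratin limit, which are rich in epithelial RNA. Ikzf2 and Ctla4 were both seen, without Foxp3, in 23 of 115 shCtrl and 33 of 1084 shSrsf10 CD8 T cells. Of CD3 barcodes without CD8, both were seen in 48 of 262 and 82 of 884, with or without Foxp3. In shCtrl the pair was thus no rarer in CD8 T cells, so there it did not by itself set regulatory T cells apart. The CD8 T cells of shCtrl had a median of 2672 UMIs. Its CD3 barcodes without CD8 that met neither route had 1577, and the part of depth was not tested.

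The libraries differed in depth among the members. A shCtrl member held a median of 2131 UMIs (524 to 17036) and a shSrsf10 member 4208.5 (765 to 29377), while the other CD4 T cells of the same libraries had medians of 2088 and 2645. The members' summed UMIs were 210626 and 516077, so a level in shCtrl has the wider interval. The deepest barcode held 16.0% of the UMIs of the shCtrl Foxp3 route and 15.6% of those in shSrsf10. The 2 files shared 67 barcodes, 2 of them among the members. Markers of gamma-delta T cells were all at 0 in the members, those of NK cells came to 1 and 17 UMIs and those of B cells to 1 and 4. Liver and tumour genes made up 0.198% of the members' UMIs in shCtrl and 0.0415% in shSrsf10, and 1 shCtrl barcode held 52.9% of the former. Of 110 neutrophil marker UMIs in shCtrl and 111 macrophage marker UMIs in shSrsf10, 1 barcode held 99.1% and 96.4%.

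The members of both routes together were a smaller part of the T cells in shSrsf10 and a larger part of the kept barcodes, the second of which was not shown for the Foxp3 route alone. They were 13.5% (10.2 to 17.4) of CD3 barcodes in shCtrl and 4.27% (3.42 to 5.26) in shSrsf10, a difference of -9.26 percentage points (-13.2 to -6.02). Of CD3 barcodes without CD8 they were 19.5% (14.9 to 24.8) and 9.5% (7.65 to 11.6). Of all kept barcodes they were 0.534% (0.398 to 0.702) in shCtrl and 1.12% (0.896 to 1.39) in shSrsf10. CD3 barcodes were 377 of 9542 kept barcodes in shCtrl and 1968 of 7486 in shSrsf10, and CD8 T cells 115 and 1084, so the direction follows the denominator. Without barcodes over 1% liver and tumour RNA members were 2.19% of kept barcodes in shCtrl and 2.06% in shSrsf10.

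The Foxp3 route gave the same direction among T cells and little difference over the library. It was 4.51% (2.65 to 7.12) of CD3 barcodes in shCtrl and 0.864% (0.504 to 1.38) in shSrsf10, a difference of -3.65 points (-6.26 to -1.89). Of kept barcodes it was 0.178% (0.104 to 0.285) and 0.227% (0.132 to 0.363), a difference of 0.0489 points whose interval ran from -0.0879 to 0.201. The pair route was 9.02% and 3.40% of CD3 barcodes. The labels name a sort with an unstated gate and a spin that sets hepatocytes aside, either of which can set shares of kept barcodes. Thinning each barcode to 1000 UMIs before applying the rule, with shallower barcodes left out, gave 20 of 292 CD3 barcodes in shCtrl (6.85%) and 26 of 1738 in shSrsf10 (1.5%). Over the library, the thinned shares were 0.236% and 0.394%.

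**Figure D1:**
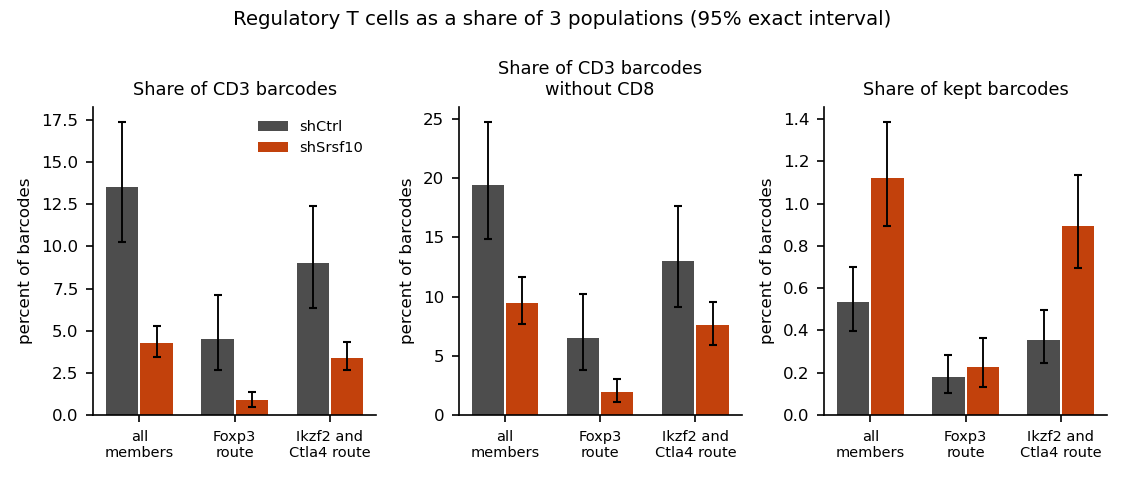
Members and their Foxp3 and pair routes (x axis) as a percent of CD3 barcodes, of CD3 barcodes without CD8 and of kept barcodes (y axes from 0), with shCtrl in grey, shSrsf10 in orange and 95% Clopper-Pearson intervals as bars. All members were 13.5% and 4.27% of CD3 barcodes and 0.534% and 1.12% of kept barcodes, so the order of the libraries turns with the denominator.

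Il2ra, Izumo1r and Areg, markers outside the rule, were higher in members than in other CD4 T cells on summed UMIs. Other CD4 T cells were barcodes with Cd4 and CD3 that met neither route, 79 in shCtrl and 297 in shSrsf10. The markers belong to lists chosen with earlier results of these data known, so their levels are a description. Levels are given as counts scaled to 1e+06 UMIs (CPM), from the UMIs summed over the cells of a group. The interleukin 2 receptor chain Il2ra was at 119 CPM (76.8 to 175) in shCtrl members and 60.1 (40.8 to 85.3) in shSrsf10 members, against 19.8 and 19.3 in other CD4 T cells. The folate receptor family member Izumo1r was at 247 CPM (184 to 324) in shCtrl members and 246 (205 to 293) in shSrsf10 members, against 111 and 82.6 in other CD4 T cells. Areg, a ligand of the epidermal growth factor receptor, was at 489 (399 to 593) and 287 (242 to 337) CPM, against 202 and 133. Each of these 3 markers was at least 2-fold higher in members than in other CD4 T cells of the same library, on summed UMIs. For Areg this did not hold in the Foxp3 route of shSrsf10, at 152 CPM from 14 UMIs, while the pair route there was at 316. In shCtrl the Foxp3 and pair routes were at 546 and 431 CPM of Areg. Izumo1r was under 2-fold higher in the pair route of shSrsf10, at 142 CPM, and in the Foxp3 route of shCtrl, at 188.

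At the level of single cells these markers were scattered. Il2ra was seen in 11 of 51 shCtrl and 20 of 84 shSrsf10 members, Izumo1r in 26 and 43, and Areg in 20 and 23. At least 1 of the 3 was seen in 40 of 51 and 58 of 84 members, and at least 2 in 15 and 24. Some sums rested on few cells: 1 member held 41 of the 103 Areg UMIs in shCtrl, and 1 held 55 of 148 in shSrsf10. Thinned to 1000 UMIs, which left 44 and 83 members, Izumo1r was seen in 34.1% (20.5 to 49.9) and 24.1% (15.4 to 34.7), and in 17.6% and 10.8% of other CD4 T cells. In the keratin-rich barcodes, which should lack it, it was seen in 0.0562% and 0.0711% after thinning. Median depths before thinning were 2310 and 4234 UMIs in these members and 16986 and 26420 in the keratin-rich barcodes.

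Il10, the suppressive cytokine, was far higher in members than in the T cells around them. Its level was 271 CPM (205 to 351) in shCtrl members and 167 (133 to 206) in shSrsf10 members, from 57 UMIs in 19 cells and 86 UMIs in 20 cells. Other CD4 T cells held 3 and 5 Il10 UMIs, 11.9 and 3.33 CPM, and CD8 T cells stood at 11.6 and 7.59 CPM. The barcodes just outside the rule were as low: those with Ctla4 but not Ikzf2 stood at 6.94 and 9.00 CPM, and those with Ikzf2 but not Ctla4 had no Il10 UMI in either library. These outside groups share cells with the other CD4 T cells.

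The 2 routes differed in shSrsf10, beyond counting error for the genes given here. There the Foxp3 route members had 554 CPM of Il10 (412 to 728) and the pair route members 82.6 (57.5 to 115), a log2 ratio of 2.75 (2.10 to 3.41). Izumo1r stood at 727 CPM (564 to 924) against 142 (108 to 182), and was seen in 15 of 17 against 28 of 67 members. The actin-capping protein Capg was at 1075 against 363 CPM, the protease Gzmb at 1618 against 509, and the immunoglobulin heavy chain gene Ighm at 358 against 54.3. Ifng, the cytokine of helper and killer cells, ran the other way, at 32.6 CPM (6.72 to 95.2) in the Foxp3 route and 401 (343 to 466) in the pair route. The inhibitory receptor Pdcd1 was at 54.3 against 245 CPM, and the chemokine receptor Cxcr6 had 2 UMIs against 104.

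For several of these genes the pair route of shSrsf10 stood nearer to other CD4 T cells than to the Foxp3 route. Other CD4 T cells of that library had 82.6 CPM of Izumo1r, 599 of Ifng, 208 of Pdcd1 and 296 of Capg. Il2ra was at 109 CPM (52.1 to 200) in the Foxp3 route, 49.5 (30.7 to 75.7) in the pair route and 19.3 in other CD4 T cells. Il10 and Il2ra were the only 2 of 11 measured regulatory T cell genes outside the rule that were at least 2-fold higher in the pair route than in other CD4 T cells, and the list's median log2 ratio was 0.36. In the Foxp3 route, 3 of 4 such genes were 2-fold higher (Izumo1r, Tnfrsf18 and Capg), with a median of 1.57. The 4 do not include Il10 and Il2ra, so the counts and medians of the routes cover different genes and cannot be compared. Measured here meant at least 20 UMIs over both groups, with at least 5 expected in the smaller one. Over all genes measured, 6.03% were at least 2-fold higher in the Foxp3 route and 2.25% in the pair route of shSrsf10.

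In shCtrl, Il10 and Izumo1r stood lower in the Foxp3 route than in the pair route, though the interval of the Izumo1r ratio included equal levels (log2 ratio -0.70, -1.59 to 0.15). Il10 was at 188 CPM (115 to 291) in the Foxp3 route and 355 (250 to 489) in the pair route, and Izumo1r at 188 (115 to 291) and 307 (210 to 433). Il2ra was at 169 (100 to 268) against 67.1 (27.0 to 138), with 11 of its 18 Foxp3 route UMIs in 1 member. Of the regulatory T cell genes outside the rule, 2 of 8 measured were 2-fold higher than in other CD4 T cells in the Foxp3 route and 2 of 7 in the pair route, beside 9.83% and 4.64% of all genes measured. Ifng again stood low in the Foxp3 route, with 2 UMIs, both in 1 member, against 25 UMIs in 10 members of the pair route. Pdcd1 had 2 UMIs against 23. Set against the label, the Foxp3 route had few Ifng UMIs in both libraries, while the pair route held both Il10 and Ifng RNA in each. The pair route members are regulatory T cells by Ikzf2 and Ctla4 in the rule, and their lack of a Foxp3 UMI was set by that route. With Foxp3 this sparse, such a lack does not show that Foxp3 was absent, and whether the label holds for them was not tested. In single members of the pair route in shSrsf10, Il10 was seen in 10 of 67, Ifng in 33 of 67, and both in 5. In shCtrl, Il10 was seen in 13 of 34, Ifng in 10 and both in 2.

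**Figure D2:**
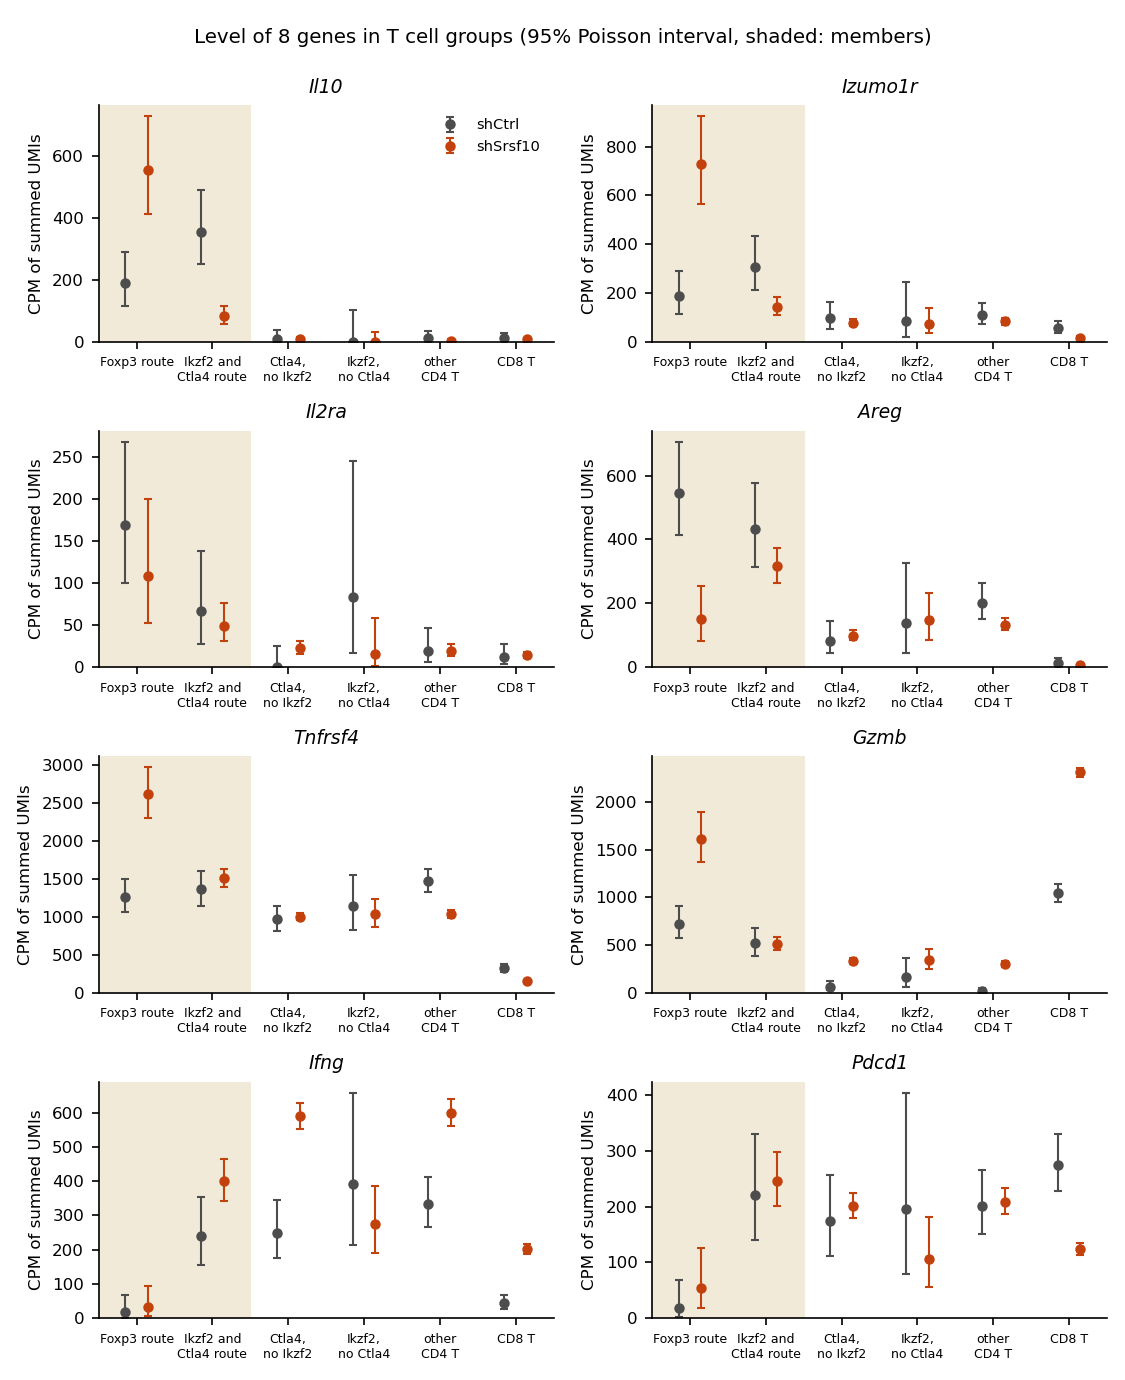
Level of 8 genes in CPM of summed UMIs (y axes from 0) in the Foxp3 route and the pair route (shaded), in barcodes just outside the rule, and in other CD4 and CD8 T cells (x axis), with shCtrl in grey, shSrsf10 in orange and 95% Poisson intervals as bars. Il10 is above 80 CPM only in the shaded groups, and Ifng in the Foxp3 route stays at 18.8 and 32.6 CPM.

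Across all genes, few separated the members from other CD4 T cells in both libraries. Of 2818 genes with at least 20 UMIs over both cell groups in each library, 15 were at least 2-fold higher in both (0.532%) and 26 at least 2-fold lower (0.923%). The genes of the rule were left out, but every gene of the chosen cells can move with them, so these counts are a description. Il10 (log2 ratio 4.51 in shCtrl, 5.65 in shSrsf10) and Klrg1 (4.51 and 2.76), an inhibitory receptor of short-lived effector cells, were the highest by the smaller of the 2 ratios. In shCtrl both had no more than 3 UMIs in other CD4 T cells. Klrg1 had 19 UMIs in the members there, so it met the minimum of 20 UMIs almost wholly through them. The granule protease Gzmb stood at 4.98 in shCtrl, where other CD4 T cells had 5 UMIs, and at 1.23 in shSrsf10, where they had 454. The costimulatory receptor Cd27 was at 1.76 and 1.03, the redox enzyme Glrx at 2.26 and 1.38, and Sv2c, best known from synaptic vesicles, at 2.59 and 1.76. Cmtm7, Gm2a, Mxi1, Agpat5, Prc1 and Ighm completed the 15 with Il2ra, Areg and Izumo1r.

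The genes that were lower in members included ligands and receptors of helper T cells and genes of antigen-presenting cells. Cd40lg, the ligand with which helper T cells activate B cells and dendritic cells, was at 9.5 and 17.4 CPM in members and 87.0 and 69.3 in other CD4 T cells, log2 ratios of -3.20 and -1.99. The chemokine Xcl1 was at 4.75 against 1016 CPM in shCtrl and 44.6 against 199 in shSrsf10, from 1 and 23 UMIs in members. Its UMIs can lie in few cells: in shCtrl barcodes with Ikzf2 but not Ctla4, 3 of 17 held 199 Xcl1 UMIs. That group shares cells with the other CD4 T cells. Tnfsf8 (CD30 ligand, -3.46 and -1.10), the lymph node homing receptor Ccr7 (-1.15 and -2.33), Il18rap, a chain of the interleukin 18 receptor (-1.66 and -1.72), and the adhesion receptor Cd226 (-2.67 and -1.42) were lower as well. The MHC class II genes H2-Aa, H2-Ab1 and H2-Eb1 had between 1 and 9 UMIs in the members of a library, and log2 ratios of -3.33 or below. Those genes mark antigen-presenting cells, and the part of such RNA in the other CD4 T cells was not tested.

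By gene list, 3 of 9 measured regulatory T cell genes outside the rule (Il2ra, Izumo1r and Il10) and 2 of 13 effector genes of tumour regulatory T cells (Areg and Klrg1) were 2-fold higher in both libraries. None of either list was 2-fold lower in both. The median log2 ratios were 0.26 and 0.73 for the first list and 0.26 and 0.73 for the second, beside 0.05 and 0.04 over all genes. Receptors that tumour regulatory T cells often carry differed in how they stood against other CD4 T cells, a contrast between libraries that was not tested. Tnfrsf4 was at 1310 CPM in shCtrl members against 1467 in other CD4 T cells, and at 1705 against 1030 in shSrsf10. Tnfrsf18 (GITR) was at 722 against 692, and at 773 against 436. Tnfrsf9 was at 726 against 471 in shCtrl and 512 against 206 in shSrsf10, and Icos, a receptor of the CD28 family, at 394 against 162 and 393 against 310. Helper and killer cytokines stood lower, with medians of -1.98 and -0.65 over 4 genes.

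**Figure D3:**
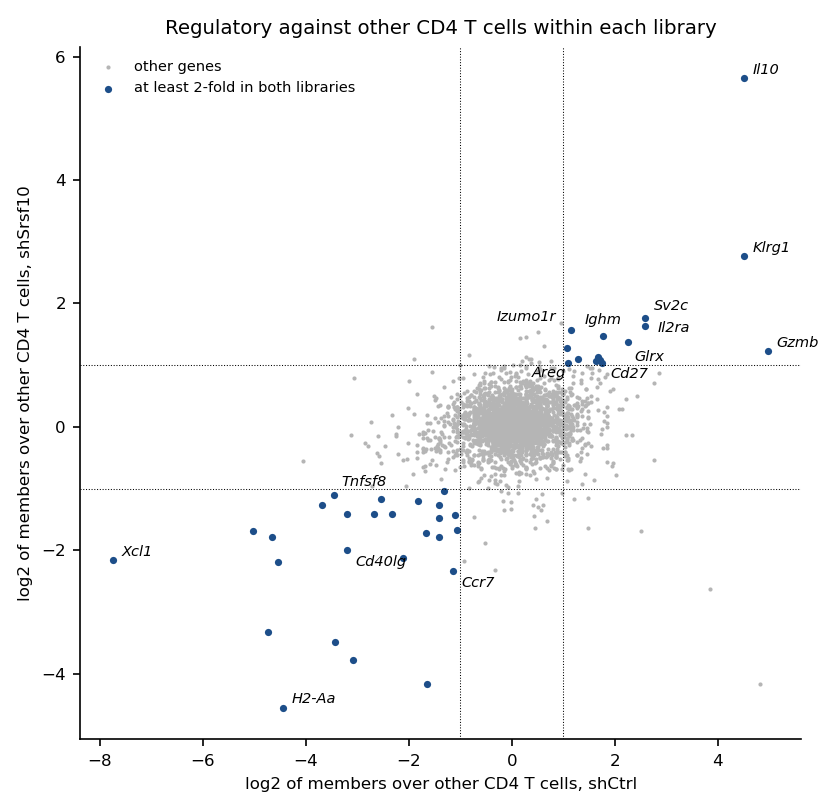
Each of 2818 genes by the log2 ratio of members to other CD4 T cells in shCtrl (x axis) and in shSrsf10 (y axis), with a group at 0 set to 3 UMIs and dotted lines at 2-fold. The 15 genes at the upper right, led by Il10 and Klrg1, and the 26 at the lower left, with Xcl1 and H2-Aa far out, are 2-fold apart in both libraries.

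Between the libraries, 18.2% of the 3832 genes with at least 20 UMIs were at least 1.5-fold higher in shSrsf10 members (696 genes) and 21.5% at least 1.5-fold lower (822), with a median log2 ratio of -0.01. Scaling by the median of ratios in place of total UMIs moved that median to 0.28 and the split to 1203 higher and 503 lower. Values below use total UMIs, and a list is read beside these shares. The minimum is over both libraries, and shSrsf10 members held more UMIs. A gene can thus meet it mostly through the library where it is higher, so the counts past 1.5-fold are a description. Srsf10 itself, at chr4:135855747-135869908, was at 61.7 CPM (32.9 to 106) in shCtrl members and 60.1 (40.8 to 85.3) in shSrsf10 members, from 13 and 31 UMIs. The log2 ratio was -0.04 (-1.02 to 1.02), so a difference of up to 2-fold either way was not detectable at this depth. In the keratin-rich barcodes Srsf10 was at 45.9 and 20.1 CPM.

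Regulatory T cell genes outside the rule were in part lower in shSrsf10 over all members, while most of those measured in the Foxp3 route were higher. Of 16 genes, 10 were measured: 5 were lower (Ikzf4, Tgfb1, Socs2, Il2ra and Il10), none higher, and the median was -0.55. The Helios relative Ikzf4 (Eos) was at 52.2 against 17.4 CPM from 11 and 9 UMIs, a log2 ratio of -1.58 (-3.03 to -0.17). The cytokine Tgfb1 was at 95 against 36.8 CPM from 20 and 19 UMIs, and Il10 at a log2 ratio of -0.70 (-1.20 to -0.19). The Il2ra ratio was -0.98 (-1.79 to -0.16), with 11 of the 25 shCtrl UMIs in 1 member, and became 0.11 with keratins at 0 and 0.37 when each cell counted equally. Izumo1r (-0.00, -0.48 to 0.49) and Tnfrsf18 (0.10) were level. The other 6 had 18 UMIs or fewer over both libraries, among them Lrrc32, which holds latent transforming growth factor on the cell surface (6 and 12), Nrp1 (4 and 12) and Swap70 (11 and 6).

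Within the routes the list's median had opposite signs, over gene sets that differ in part. In the Foxp3 route, 4 of 6 measured genes were higher in shSrsf10, 1 was lower, and the median was 1.12, beside 23.9% higher and 20.5% lower of the 1314 genes measured there. General T cell markers, among them the CD3 genes of the rule, were higher in 7 of 7 with a median of 1.06, liver and tumour genes, the keratins of the rule included, had a median of -3.28 and mitochondrial genes of -1.81, and their part in the result was not tested. Il10 was at a log2 ratio of 1.56 (0.79 to 2.38), Izumo1r at 1.95 (1.21 to 2.75) and Capg at 1.63 (1.07 to 2.21). In the pair route 4 of 8 measured genes were lower and none higher, with a median of -0.65, beside 22.5% higher and 18% lower of 2948 genes. Il10 was at -2.10 (-2.81 to -1.40) and Izumo1r at -1.12 (-1.76 to -0.45). T cell markers there had a median of 0.30. The pair route held 67 of 84 members in shSrsf10 and 34 of 51 in shCtrl, so the sum over members weights it more in shSrsf10. The median of the list was -0.41 in other CD4 T cells and -0.69 in CD8 T cells.

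Effector genes of tumour regulatory T cells were mixed. Of 16 measured, 2 were higher and 5 lower, with a median of -0.33. The median was 0.57 in the Foxp3 route (3 of 7 higher, 1 lower) and -0.50 in the pair route (1 of 15 higher, 6 lower). It was -0.51 in other CD4 T cells and -0.09 in CD8 T cells. Batf, a transcription factor that drives the tissue programme of these cells, was at 242 CPM (180 to 318) in shCtrl and 606 (541 to 678) in shSrsf10, seen in 17 of 51 and 56 of 84 members. Il1r2, a decoy receptor for interleukin 1, was at 47.5 and 107 CPM. The ectoenzymes Entpd1 (CD39) and Nt5e (CD73), which turn extracellular ATP into adenosine, were at 85.5 against 36.8 and 66.5 against 17.4 CPM. Klrg1 and the transcription factor Maf were at log2 ratios of -1.15 and -0.72 over all members. In the Foxp3 route they were at 0.36 and 0.27, with intervals that included equal levels. Ccr8, a chemokine receptor used to mark tumour regulatory T cells, had 3 and 9 UMIs, too few to compare.

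Over all members, no costimulatory receptor passed 1.5-fold, and 3 inhibitory receptors and exhaustion factors were higher. None of 7 measured costimulatory receptors passed 1.5-fold, and their median was -0.00, or 0.29 under median-of-ratios scaling. Icos was at 394 and 393 CPM, and Tnfrsf9 at 726 and 512. By route, 5 of 7 costimulatory receptors were higher in the Foxp3 route and 3 of 7 lower in the pair route. Of 6 measured inhibitory receptors and exhaustion factors, 3 were higher (Rgs16, Pdcd1 and Lag3) and none lower, with a median of 0.68. Lag3 was at 147 (100 to 209) and 254 CPM (212 to 301), and Pdcd1 at 119 (76.8 to 175) and 211 (173 to 255). The exhaustion factor Tox was at a log2 ratio of -0.48 (-1.04 to 0.11). Within the pair route, which held 104 of the 109 Pdcd1 UMIs of shSrsf10, the list's median was 0.22 and Pdcd1 was at 0.15 (-0.51 to 0.87). In other CD4 T cells Pdcd1 was at 202 and 208 CPM.

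Cytokines and killer genes of other T cells were also found in the members. Ifng was at 128 CPM (84.5 to 187) in shCtrl and 335 (287 to 389) in shSrsf10, seen in 11 of 51 and 36 of 84 members, with 59 of the 173 shSrsf10 UMIs in 1 member. The Foxp3 route held 2 and 3 Ifng UMIs. Within the pair route the log2 ratio of Ifng was 0.74 (0.13 to 1.41). Other CD4 T cells stood at 332 and 599 CPM of Ifng, a log2 ratio of 0.85 (0.53 to 1.19). Of 9 cytotoxic genes measured, 3 were higher (Gzmk, Klrd1 and Ccl5), 2 lower (Ccl3 and Ccl4), and the median was 0.04. Gzmk went from 3 to 54 UMIs. The NK receptor chain Klrd1 had 0 UMIs in shCtrl and 48 in 11 members of shSrsf10, at least 6.53-fold higher against a floor of 3 UMIs, all in the pair route. Gzmb was at 622 and 707 CPM, a log2 ratio of 0.19 (-0.11 to 0.48). By route, the Gzmb ratio was 1.16 (0.75 to 1.58) in the Foxp3 route and -0.02 (-0.46 to 0.44) in the pair route. The cytotoxic list's median was 1.05 in the Foxp3 route (4 of 5 higher) and -0.44 in the pair route (2 of 9 higher, 2 lower). It was 0.52 in other CD4 T cells, and these gene sets differ in part. Of the Ccl3 UMIs in shCtrl, 1 member held 72.1%.

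Genes of glucose use were higher in shSrsf10 members. Of 14 measured, 10 were higher, 1 lower (Pfkp), and the median was 0.78. The glucose transporter Slc2a1 went from 2 UMIs in 2 members to 38 UMIs in 28 members, 9.5 (1.15 to 34.3) to 73.6 CPM (52.1 to 101), a log2 ratio of 2.96 (1.00 to 6.05). Hexokinase Hk1 went from 2 to 24 UMIs (2.29, 0.28 to 5.42). Slc2a1, Hk1 and Pfkl (5 and 34 UMIs) met the minimum of 20 UMIs mostly through shSrsf10, where they were higher. Their part in the count is a description. Gapdh was at 997 (867 to 1139) and 2186 (2060 to 2317) CPM, Eno1 at 152 and 331, and Ldha, which makes lactate, at 1253 and 1746. Ldha stayed under 1.5-fold, at 0.48 (0.28 to 0.68). The list's median was 0.79 in the Foxp3 route, 0.76 in the pair route, 0.47 in other CD4 T cells and 0.03 in CD8 T cells, and the differences between these cell groups were not tested. The transcription factor Myb had 4 UMIs in each library.

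Some interferon-induced and antigen-presentation genes were higher as well. Of 12 measured type I interferon-induced genes, 7 were higher and none lower, with a median of 0.71. The regulator Irf7 went from 2 to 33 UMIs, and Epsti1 from 66.5 to 196 CPM, seen in 10 of 51 and 51 of 84 members. Among the higher ones, Irf7, Xaf1 (2 and 27 UMIs) and Rtp4 (3 and 20) met the minimum of 20 UMIs mostly through shSrsf10. Their part in the count is a description. Of 12 interferon gamma-induced genes, 5 were higher, 2 lower and 5 within 1.5-fold (median 0.34). Of 14 MHC class I genes, 6 were higher, none lower and 8 within 1.5-fold (median 0.55): H2-D1 was at 1424 and 2393 CPM, and the peptide transporter Tap1 at 104 and 190. In CD8 T cells the type I list had a median of 1.47 and in other CD4 T cells 0.73.

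Genes of movement and homing were mixed. Of 13 measured chemokine and homing receptors, 7 were higher and 3 lower (Ccr7, Itgav and Cxcr4), with a median of 0.70. The chemokine receptors Ccr2 (38.0 and 87.2 CPM) and Cxcr6 (104 and 205 CPM) were among the higher ones. Of the 106 Cxcr6 UMIs in shSrsf10, 104 lay in the pair route, while 26 of the 45 Ccr2 UMIs there lay in the Foxp3 route. Itgav, an integrin chain that helps release active transforming growth factor, was at 242 (180 to 318) and 91.1 CPM (66.9 to 121), seen in 31 of 51 and 30 of 84 members. Other CD4 T cells stood at 281 and 48.0 CPM of Itgav, a log2 ratio of -2.55 (-3.04 to -2.06). By route the Itgav ratio was 0.06 (-0.91 to 1.03) in the Foxp3 route and -2.12 (-2.92 to -1.33) in the pair route. Of 10 naive and lymphoid-homing genes, 3 were higher and 5 lower (median -0.36, and 0.07 when each cell counted equally).

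Signalling lists were near the median of all genes. For T cell receptor signalling and immediate early genes it was 0.05 (3 of 14 higher, 3 lower), and for IL-2 and STAT5 pathway genes 0.04 (2 of 12 higher, 3 lower). Hypoxia response genes were at 0.26 (3 of 7 higher, 1 lower) and heat shock genes at -0.41 (1 of 8 higher, 2 lower). Cell cycle genes were at -0.09, with 3 of 25 higher and 6 lower, and at 0.20 under median-of-ratios scaling. The proliferation marker Mki67 was at 176 and 71.7 CPM, and the cyclin Ccnb2 at 47.5 and 178. Among splicing factors of the SR family and their kinases, 4 of 14 were lower (Tra2a, Srsf9, Srsf2 and Srpk1) and none higher. Their median was -0.25, and 0.04 under median-of-ratios scaling. Of 82 ribosomal protein genes, 1 was higher and 7 lower, with a median of -0.05 that became 0.25 under that scaling. The routes differed, over gene sets that differ in part. Cell cycle genes had medians of -0.89 in the Foxp3 route and 0.20 in the pair route. In the Foxp3 route 11 of 17 were lower and none higher, beside 20.5% lower of all genes there. T cell receptor genes were at 1.37 over 4 genes and -0.24 over 12. IL-2 and STAT5 genes were at 0.44 and -0.32, hypoxia genes at 0.83 and 0.28, and heat shock genes at -0.88 and 0.01.

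**Figure D4:**
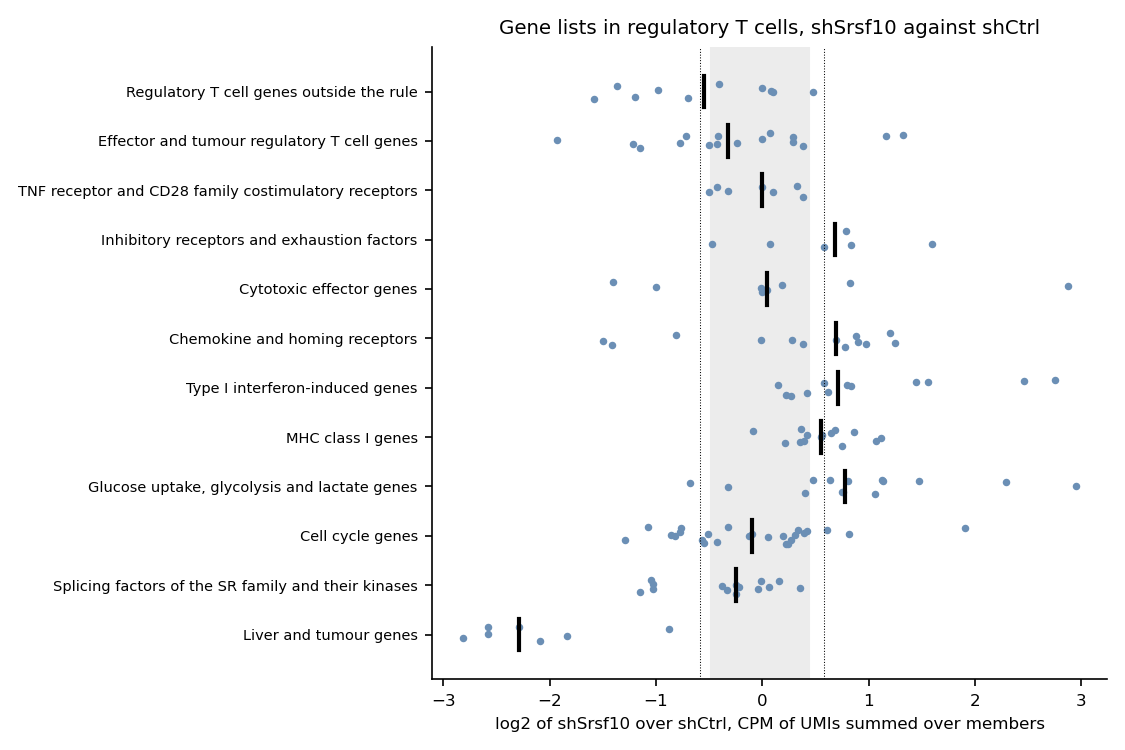
Log2 ratio of shSrsf10 to shCtrl in members (x axis) for the measured genes of 12 lists (y axis), each point a gene, with the list's median as a black bar, 1.5-fold as dotted lines and the interquartile range of all 3832 genes in grey. Glucose use, type I interferon and MHC class I genes lie to the right with medians of 0.78, 0.71 and 0.55, and regulatory T cell genes to the left at -0.55; Klrd1, at 0 UMIs in shCtrl, is not drawn, and the liver list includes Krt8 and Krt18 of the rule.

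The naming rule took the genes furthest apart among those with at least 40 UMIs over both libraries, seen in at least 8 cells of the library where they were higher. On the higher side in shSrsf10 were Ly6c2 (log2 ratio 4.99, 2.47 to 10.31), a surface protein of memory and effector T cells, Rasgrp2 (4.32), a Rap activator, Casp1 (3.17), Slc2a1, Gzmk (2.88), Klrd1, Acaa1a (2.41), Bscl2 (2.41), Ctla2a (2.36) and Lpxn (2.35). Ly6c2 was seen in 1 shCtrl and 18 shSrsf10 members, and Rasgrp2 in 1 and 18. Of the 78 Ly6c2 UMIs in shSrsf10, 75 were in the pair route. Other CD4 T cells stood at 7.91 and 140 CPM of Ly6c2 and CD8 T cells at 134 and 1952, so this gene was also higher in shSrsf10 in both of those groups.

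On the lower side, 8 of the 10 genes are made by hepatocytes or tumour cells. They were Gstm1 (-3.17), Trf (-2.82), Alb (-2.58), Ttr (-2.58), Rbp4 (-2.44), Igfbp1 (-2.32), Afp (-2.29) and Rhox5 (-2.29). In shCtrl, 1 member held 62.8% of the Alb, 60.9% of the Trf and 65.9% of the Afp UMIs. Leaving out Krt8 and Krt18, which the rule used, the 5 measured liver and tumour genes were lower in shSrsf10 members, with a median of -2.58. Without the 3 members richest in RNA of another cell type, Alb was at -1.24 and Afp at -0.74. The remaining 2 genes were the transcription factor subunit Taf10 (-2.92, 34 and 11 UMIs) and the kinase-like Peak1 (-2.26, 39 and 20). Mitochondrial transcripts were also lower, with 7 of 8 measured past 1.5-fold and a median of -1.02, beside -2.21 in other CD4 T cells and -0.72 in CD8 T cells. The median mitochondrial share was 0.186% and 0.0799% of a member's UMIs.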

How the data were processed

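Single-cell RNA was measured in 1 shCtrl and 1 shSrsf10 tumour library. The deposited matrices hold raw UMI counts per gene and barcode, made with Cell Ranger 6.1.0 on mm10 per the submitters' processing notes. The labels disagree on the kit: the series text names a 5′ kit and a sort with an unstated gate, and the samples' protocol a 3′ v3 kit and a slow spin that sets hepatocytes aside. The lowest barcode total was 500 UMIs in both libraries, which together held 143327661 and 136419902 UMIs, and barcodes have 17 letters.

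Members were taken by the rule in the report. Counts were summed over cells and scaled to 1e+06 summed UMIs (CPM). Intervals are 95%: Poisson for levels, Clopper-Pearson for shares, Newcombe for share differences and the exact conditional binomial for ratios. A gene was measured with at least 20 UMIs. Comparisons of a route with other CD4 T cells also asked for at least 5 UMIs expected in the smaller group, a choice made after seeing the data. Thinning drew 1000 UMIs per barcode (seed 1). Doublets were left in: Scrublet's automatic threshold marked 0 of 9920 shCtrl barcodes, where it has not worked, and 223 of 7553 shSrsf10 barcodes, and the 787 and 456 highest scores were left out as an alternative. In all, 14 alternatives were planned, and 1 was added after seeing the data. The code was tested on simulated data. Python 3.11.15, numpy 2.4.6, scipy 1.17.1, pandas 2.3.3, scanpy 1.11.5 and matplotlib 3.10.9 were used.

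The members and gene lists were chosen with earlier results of these data known. Genes were named by this rule: the rule's genes with Il2ra, Areg and Izumo1r; Srsf10, Slc2a1, Hk1, Ldha and Myb; the 10 highest and 10 lowest ratios between libraries with at least 40 UMIs over both libraries and 8 cells in the library where the gene was higher; against other CD4 T cells with at least 20 UMIs in each library, the 15 highest by the smaller and the 10 lowest by the larger of the libraries' ratios; and the members of each list with the largest ratios. The ranked sets hold no unnamed or sex-linked genes, no antigen receptor segments, and no haemoglobin, ribosomal or mitochondrial genes. Other genes named were chosen after their values were seen. Coordinates are from GENCODE vM21.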

Additional observations from a re-analysis of the deposited data

Results flagged for a closer look

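For 9 named genes, members stood above other CD4 T cells in 1 library and below them in the other, on summed UMIs; in each case the difference between the libraries was not tested. Batf was at a log2 ratio of members to other CD4 T cells of -1.06 in shCtrl (242 against 506 CPM) and 0.25 in shSrsf10 (606 against 510). Cxcl10, an interferon-induced chemokine, was at -1.54 and 1.62, and its shSrsf10 UMIs lay almost wholly in members that entered without Foxp3 (log2 ratio of Foxp3 to pair route -5.43). Tox, a factor of exhausted T cells, was at -0.87 and 0.46, the T cell receptor constant gene Trbc2 at -0.84 and 0.13, and the glycolytic enzyme Gapdh at -0.28 and 0.21.

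The other 4 stood higher in shCtrl members: Ccl3 (1.03 and -0.48) and the hepatocyte genes Alb (0.82 and -0.67), Trf (0.67 and -1.52) and Gstm1 (2.50 and -1.68). In shCtrl, 1 member held 72.1% of the Ccl3, 62.8% of the Alb and 60.9% of the Trf UMIs.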

How the results depend on the processing

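No paired analysis was possible because each group has 1 library and no test was made. The share of members among CD3 barcodes stayed lower in shSrsf10 under each alternative that moved it: 4.51% and 0.864% with the Foxp3 route alone, 6.1% and 2.54% with Cd4 asked as well, and 6.85% and 1.5% after thinning. Of kept barcodes, the shares were 0.178% and 0.227%, 0.241% and 0.668%, and 0.236% and 0.394% under the same settings, 0.388% and 0.721% with keratins at 0, and 2.19% and 2.06%, where the order turned, without barcodes over 1% liver and tumour RNA. Genes at least 1.5-fold higher and lower numbered 314 and 270 with the Foxp3 route alone, 447 and 380 with keratins at 0, 1203 and 503 under median-of-ratios scaling, 291 and 218 with at least 50 UMIs, and 1556 and 3286 with no minimum. Genes 2-fold higher than in other CD4 T cells in both libraries numbered 44, 6 with Cd4 asked, 9 under median of ratios, 35 with each cell counted equally, 7 with at least 50 UMIs, 184 with no minimum and 30 against all other CD3 barcodes without CD8. The causes were not tested. The log2 ratio between libraries changed sign with the Foxp3 route alone for Bhlhe40 (-0.0565), Ccl3 (3.01), Ccl4 (0.0621), Ccr7 (0.43), Cxcl10 (-2.60), Cxcr6 (-1.38), Foxp3 (0.85), Ikzf4 (0.21), Il10 (1.56), Itgav (0.0621), Itgb1 (-0.12), Klrg1 (0.36), Maf (0.27), Socs2 (0.43) and Sv2c (0.21). With keratins at 0 it did so for Bnip3l (-0.0285), Hspd1 (0.47), Id3 (1.82), Il2ra (0.11) and Ndrg1 (0.0646), and with each cell counted equally for Areg (0.15), Bnip3l (-0.25), Id3 (0.15) and Il2ra (0.37). Without the 3 members rich in RNA of another cell type, 656 genes were higher and 744 lower. Depth limits what single cells show: Foxp3 was seen in 17 members of each library.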
